A study of Mus musculus with 4 samples.

Results

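Laminins and perlecan are large proteins of the basement membrane, and 61 of the 80881 accessible regions (peaks) in the deposited ATAC-seq table were assigned to their genes. The members were all peaks whose assigned gene symbol was Lama1, Lama3, Lama4, Lama5, Lamb1, Lamb2, Lamb3, Lamc1 or Hspg2, so 8 laminin chain genes and the perlecan gene. ATAC-seq counts fragments that a transposase cuts from open chromatin. The groups were cells given mA2 dRNA, a guide to Malat1, and cells given Con dRNA, a guide to luciferase, which is no mouse gene, with 2 biological replicate libraries each. All cells were of 1 line, labelled KPC cells, from a KP mouse lung adenocarcinoma. Both groups carried lentiviral SpCas9 selected with puromycin and the lentiviral SAM vector for CRISPR activation, and 1 Malat1 guide is named. The study asked what overexpression of Malat1, a noncoding transcript that stays in the nucleus, does to accessible chromatin.

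A laminin is a trimer of an alpha, a beta and a gamma chain. Trimers are secreted, assemble into a sheet on the cell surface and bind integrins and dystroglycan, while perlecan, a heparan sulphate proteoglycan, ties that sheet to other matrix. In the lung the sheet lies under airway and alveolar epithelium and around vessels, and carcinoma cells both make it and cross it.

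Each level given is the authors' mean of normalized reads over the libraries of a group, because the columns of single libraries could not be tied to samples by name. No spread between libraries is therefore printed, and a peak is said to have risen or fallen, or to be called, where the authors' deposited table gives an adjusted p under 0.05. Fold values are ratios of the group means, not the authors' deposited fold. In the median called peak the deposited log2 fold was 0.77 of the log2 difference of the means. For uncalled peaks the ratios lie much farther from 1 than the deposited fold does. For differences of at least 0.1 on the log2 scale, the standard error that the deposited p implies is given, on the assumption of a normal test statistic. A change in read number does not tell whether more cells had a region open or each cell had it open more often. Summed over all peaks, the mA2 dRNA mean was 1.07 times the Con dRNA mean, and the median log2 difference was 0.09.

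Among the laminin and perlecan peaks, 3 rose and 0 fell with mA2 dRNA, and all 3 were Lama5 peaks. The 3 are 4.92% of the members, against a background of 2.23% of all peaks that rose and 0.507% that fell (the authors' deposited table, adjusted p under 0.05). Before adjustment, 8 members were higher (13.1%) and 0 lower at p under 0.05, against 8.86% and 2.85% of all peaks of the authors' deposited table. Lama5 held 4 of those 8, Hspg2 2, and Lamb1 and Lamb2 1 each. Over the 61 peaks the median log2 difference was 0.11, close to the 0.09 of all peaks. The higher mean was with mA2 dRNA at 35 peaks (57.4%, against 60.8% of all peaks) and with Con dRNA at 26. Over the 48 peaks of the other genes the median was -0.0095, and 4 of them (8.33%) were higher at p under 0.05 before adjustment (the authors' deposited table).

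**Figure D1:**
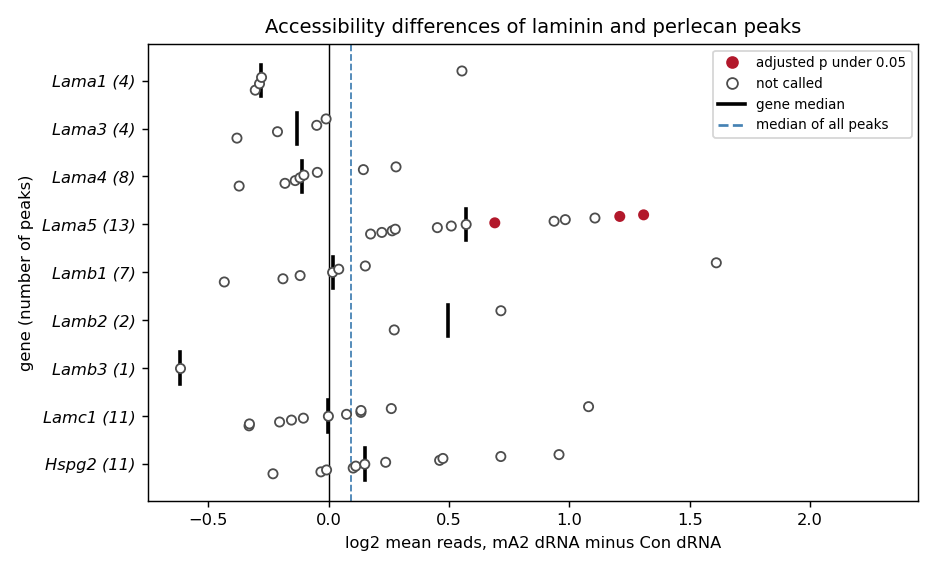
Log2 difference between the group means (mA2 dRNA minus Con dRNA) for each of the 61 peaks, by gene, with the number of peaks in brackets, gene medians as bars and the median of all peaks (0.09) dashed. All 13 Lama5 peaks lie right of 0 and hold the 3 filled points, while peaks of most other genes lie on both sides.

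For 4 members, the RefSeq promoter table holds a window that overlaps the start-site peak, and these sequences are shown to set beside the levels at the start sites given next. Each line gives the 250 bases before a RefSeq start site (GRCm38.p6, the assembly of mm10), 5′ to 3′ on the strand of the gene, with CpG dinucleotides in capitals. For all 4, that start site lies inside the RefSeq gene bounds given below, so each window includes bases within those bounds. The windows are chr2:180225860-180226109 on the minus strand for Lama5, chr4:137468553-137468802 on the plus strand for Hspg2, chr12:31265043-31265292 on the plus strand for Lamb1 and chr9:108479612-108479861 on the plus strand for Lamb2.
Lama5: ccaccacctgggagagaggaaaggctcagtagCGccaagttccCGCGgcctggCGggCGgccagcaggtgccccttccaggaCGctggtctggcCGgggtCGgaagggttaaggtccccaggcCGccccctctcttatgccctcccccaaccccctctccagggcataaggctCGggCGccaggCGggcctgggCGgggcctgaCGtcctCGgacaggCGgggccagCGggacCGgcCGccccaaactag
Hspg2: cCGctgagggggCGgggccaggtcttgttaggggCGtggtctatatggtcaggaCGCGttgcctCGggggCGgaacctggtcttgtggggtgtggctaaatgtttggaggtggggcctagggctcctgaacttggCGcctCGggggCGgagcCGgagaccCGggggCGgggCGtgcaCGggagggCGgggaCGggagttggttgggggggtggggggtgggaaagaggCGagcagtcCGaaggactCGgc
Lamb1: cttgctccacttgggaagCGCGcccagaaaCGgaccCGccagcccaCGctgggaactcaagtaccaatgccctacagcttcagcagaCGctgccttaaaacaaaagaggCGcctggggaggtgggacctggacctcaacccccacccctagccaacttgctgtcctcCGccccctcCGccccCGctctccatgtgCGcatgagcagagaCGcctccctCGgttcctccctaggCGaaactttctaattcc
Lamb2: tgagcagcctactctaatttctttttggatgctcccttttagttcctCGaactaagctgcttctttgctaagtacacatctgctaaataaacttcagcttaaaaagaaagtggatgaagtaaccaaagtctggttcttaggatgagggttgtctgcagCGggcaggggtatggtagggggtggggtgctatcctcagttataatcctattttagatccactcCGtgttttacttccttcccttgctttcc
The Lama5 and Hspg2 windows hold 19 and 20 CpGs, the Lamb1 window 14 and the Lamb2 window 3, where the median over the 32851 windows of the RefSeq table is 6. Their GC contents are 72.4%, 70.0%, 62.0% and 43.6%, against a median of 52.4%. The start-site peaks cover 210 of the 250 bases for Lama5, 242 for Hspg2, 143 for Lamb1 and 173 for Lamb2.

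A search for 10 motifs on both strands of these windows and of the 2 Lamb3 windows of the table found few matches. The SP1 box GGGGCGGGG, present in 10.4% of all windows, occurs in the Hspg2 window at positions -242 and -88 from the start site of that window. The TEAD motif GGAATG, present in 12.6% of windows, occurs in 1 Lamb3 window. No match was found for AP-1 (TGANTCA, 6.75% of all windows), ETS (CCGGAA, 12.03%), RUNX (TGTGGT, 14.05%), FOXA (TGTTTAC, 3.17%), NKX2-1 (CACTTGA, 2.68%), GRHL (AACCNGTT, 1.79%), NF-kB (1.21%) or CTCF (0.183%). These are letter matches in a short window and say nothing of binding.

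At the start sites themselves, accessibility ranged widely between the genes and no peak was called in either group's favour. Of 9 member peaks in the authors' promoter class, 0 rose and 0 fell, with 1 higher and 0 lower at p under 0.05 before adjustment (the authors' deposited table). In that class 1.2% of all peaks rose and 0.22% fell. The peaks compared here have a common length of 401 bp. Lamc1, the gamma chain shared by most laminins, had the strongest start-site peak, with 581 reads in both groups, at the 80.5th percentile of all promoter peaks. Hspg2 followed with 371 reads with mA2 dRNA and 373 with Con dRNA, and Lama5 with 305 and 270 reads in the same order. Lamb2 held 189 reads with mA2 dRNA and 157 with Con dRNA, Lamb1 118 and 117, and Lama3 92.6 and 107. In RefSeq the Lama5 peak also overlaps the gene Gm52542, and the Lamb1 peak the gene Gm32899. The start-site peak of Lama1, an alpha chain of early embryonic basement membranes, was weak, at 23.4 reads with mA2 dRNA and 28.9 with Con dRNA. So was that of Lama4, an alpha chain of vessels and mesenchyme, at 21.8 and 19.7 reads. These lie at the 3.14th and 1.37th percentiles of promoter peaks, whose median is 272 reads and whose quartiles are 108 and 506. Without values of single libraries, it cannot be said which neighbours in this order differ beyond their error.

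**Figure D2:**
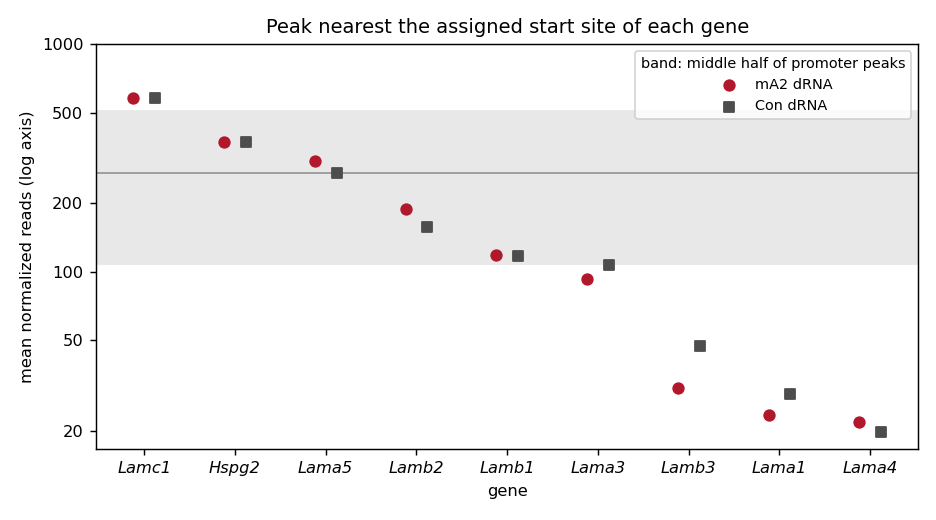
Mean normalized reads (log axis) of the peak nearest the assigned start site of each gene, with mA2 dRNA on the left (circles) and Con dRNA on the right (squares) of each pair, over a band between the quartiles of all promoter peaks (108 to 506 reads). The genes run from Lamc1 at 581 reads down to Lama4 near 20.8, and the Lamb3 peak is outside the RefSeq bounds of that gene.

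Lama5, the alpha chain of most adult epithelial basement membranes, occupies bases 180176373 to 180225904 of chromosome 2, read on the minus strand (RefSeq, gene ID 16776), and 3 of its peaks rose with mA2 dRNA. All 13 Lama5 peaks had the higher mean with mA2 dRNA, with log2 differences from 0.17 to 1.31 and a median of 0.57. In sum they held 3914 reads with mA2 dRNA and 2623 with Con dRNA, a ratio of 1.49. These 13 peaks lie in the first part of the gene and upstream of it, from 9.23 kb before the start site to 17.5 kb after it. Farther into the gene, within its RefSeq bounds, lie 3 peaks that carry the symbol Mir7005. Their log2 differences ran from -0.13 to 0.34, and none was called (lowest adjusted p 0.913, the authors' deposited table).

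The clearest Lama5 rise was in exon 2, 4.38 kb into the gene, at chr2:180221080-180221480. This peak held 182 reads with mA2 dRNA against 73.3 with Con dRNA, a 2.48-fold rise (adjusted p 0.0106, the authors' deposited table). Its log2 difference was 1.31, with an implied standard error of 0.34 and a 95% interval of the ratio from 1.55 to 3.95. The other pair of risen peaks lies upstream in intergenic sequence. At chr2:180235084-180235484, 9.23 kb upstream, 272 reads with mA2 dRNA stood against 118 with Con dRNA, a 2.31-fold rise (adjusted p 0.0135, the authors' deposited table) with an interval from 1.49 to 3.60. At chr2:180233106-180233506, 7.25 kb upstream, the mA2 dRNA mean was 608 reads and the Con dRNA mean 377, a 1.61-fold rise (adjusted p 0.0273, the authors' deposited table) with an interval from 1.23 to 2.12. That second upstream peak is among the strongest intergenic peaks of the table, at the 96.7th percentile of its class. With the differences centred on the median of all peaks, of their chromosome, of their 10 Mb window or of peaks of like abundance, its adjusted p lay between 0.0682 and 0.203, so it was no longer called. The peak 9.23 kb upstream lost its call with the window's median alone (0.0633), but with the chromosome's median it stood at the threshold (0.049997). The exon 2 peak kept its call under all 4, though only just with the window's median (0.0490). These centred values rest on the implied standard errors, so calls this near to 0.05 are not secure. The window's median of 0.17 was taken over 138 peaks that include the 13 of Lama5, and without those 13 it was 0.15. The authors' deposited log2 fold was 1.06 for the exon 2 peak, 0.98 for the peak 9.23 kb upstream and 0.58 for the peak 7.25 kb upstream.

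Between the upstream pair lies a peak 8.42 kb upstream with 118 reads with mA2 dRNA against 59.5 with Con dRNA, a ratio of 1.98 that was not called (adjusted p 0.122, the authors' deposited table). So 3 adjacent upstream peaks each had means 1.61 to 2.31 times as high with mA2 dRNA. Nearer to the gene the differences were smaller. The peaks 2.73 kb and 1.85 kb upstream had ratios of 1.37 and 1.21, and the start-site peak, 305 against 270 reads, had a ratio of 1.13 with an interval from 0.845 to 1.51. None of these 3 was called, and the authors' deposited table gave them adjusted p from 0.706 to 0.925.

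Inside the gene some uncalled peaks had means as far apart as the called ones but much wider errors. The intron 1 peak 2.17 kb into the gene held 291 reads with mA2 dRNA and 135 with Con dRNA, a ratio of 2.15. Its implied standard error of 0.77 is above those of 98.1% of peaks of like abundance, and the interval runs from 0.759 to 6.11. The intron 2 peak at 10.8 kb held 351 reads with mA2 dRNA and 183 with Con dRNA, with an interval from 0.660 to 5.55 and an error above those of 98.8% of like peaks. The strongest Lama5 peak, in intron 2 at 9.50 kb, held 850 reads with mA2 dRNA and 708 with Con dRNA, and its error of 0.41 is likewise above those of 98.8% of like peaks. These 3 intronic sites therefore have wider errors than nearly all peaks of their strength. The intron 2 peak at 7.85 kb had 357 and 240 reads with mA2 dRNA and Con dRNA (ratio 1.49, adjusted p 0.477, the authors' deposited table). The last pair, at 16.6 kb in intron 2 and 17.5 kb in exon 3, was weaker, with ratios of 1.42 and 1.17.

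**Figure D3:**
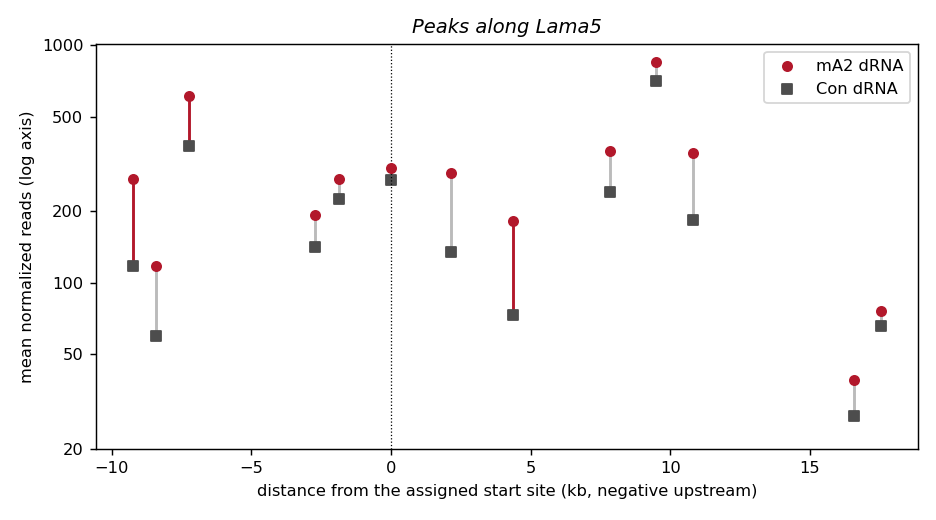
Mean normalized reads (log axis) of the 13 Lama5 peaks with mA2 dRNA (circles) and Con dRNA (squares) against distance from the start site in kb, negative upstream, with red connecting lines for called peaks. Every circle lies above its square, by least at the start site (305 against 270) and by most at 4.38 kb (182 against 73.3).

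Around Lama5, most means were also higher with mA2 dRNA. Within 100 kb of its start site lie 17 peaks of other genes, of which 13 had the higher mean with mA2 dRNA and 2 (11.8%) rose in the authors' deposited table. The risen pair is assigned to Cables2 and lies about 50 kb upstream of Lama5. The stronger of them held 802 reads with mA2 dRNA against 403 with Con dRNA (adjusted p 1.03e-05, the authors' deposited table). Between that pair and Lama5 the Rps21 promoter peak held 1758 and 1579 reads with mA2 dRNA and Con dRNA and was not called. Peaks of chromosome 2 had a median log2 difference of 0.14. The 10 Mb window of Lama5 is a fixed stretch of the chromosome, and the gene lies near its edge rather than its middle. The 125 peaks that share this window without being assigned to Lama5 had a median of 0.15, with 6 of them (4.80%) higher and 1 lower by call. The part of this wider shift in the Lama5 differences was not tested.

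The remaining alpha chains had 16 peaks and none called, and their lowest p was 0.199 in the authors' deposited table. Lama3 (chr18:12333417-12583013), the alpha chain that joins Lamb3 in hemidesmosomes, had 4 peaks, all with the lower mean with mA2 dRNA. Their log2 differences ran from -0.38 to -0.01. The strongest of them, in intron 13 and 107 kb from the start site, held 175 reads with mA2 dRNA and 176 with Con dRNA, and the one 12.6 kb upstream held 123 and 160. Within the RefSeq bounds of Lama3 lie 4 more peaks, which carry the symbol Ttc39c. Their log2 differences lay on both sides of 0, from -0.41 to 0.86, and none was called (lowest adjusted p 0.666, the authors' deposited table). Lama4 (chr10:38965515-39110188) had 8 peaks, led by an intron 1 peak 13.9 kb from the start site with 187 reads with mA2 dRNA and 154 with Con dRNA, a ratio of 1.21 with an interval from 0.840 to 1.75. All 3 intron 1 peaks of Lama4 held more reads than its start-site peak. Lama1 (chr17:67697127-67822645) had 4 weak peaks of 22.0 to 33.1 reads over both groups. At that level the ratio of its start-site peak, 0.810, had an interval from 0.373 to 1.76.

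The beta chains had 10 peaks, and 0 rose or fell, with 2 higher and 0 lower at p under 0.05 before adjustment (the authors' deposited table). Lamb1 (chr12:31265146-31329644), the most widespread beta chain, had 7 peaks with a median log2 difference of 0.02. Its strongest peak, 6.26 kb from the start site in intron 4, held 488 reads with mA2 dRNA and 474 with Con dRNA. A weak Lamb1 peak 46.1 kb upstream had the largest ratio of any member, 3.05, from 40.2 reads with mA2 dRNA and 13.2 with Con dRNA. That peak was not called (adjusted p 0.141, the authors' deposited table), and its interval ran from 1.36 to 6.88. Lamb2 (chr9:108479847-108490530), the beta chain of glomerular and synaptic basement membranes, had a pair of promoter peaks. The one 0.595 kb upstream held 152 reads with mA2 dRNA and 92.7 with Con dRNA, a ratio of 1.64 (adjusted p 0.313, the authors' deposited table). The one at the start site had a ratio of 1.21 with an interval from 0.841 to 1.73.

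Lamb3, the beta chain of the laminin of hemidesmosomes, had a single assigned peak, and it lies outside the RefSeq bounds of the gene (chr1:193294353-193343878). The peak, at chr1:193215981-193216381, held 30.9 reads with mA2 dRNA and 47.3 with Con dRNA and was not called (adjusted p 0.797, the authors' deposited table). Within the RefSeq bounds lie 7 other peaks that the table assigns to Camk1g or G0s2. One of them lies 11 bases outside the upstream window of a RefSeq Lamb3 start site and held 58.5 and 58.7 reads with mA2 dRNA and Con dRNA. The strongest, at chr1:193298132-193298532, held 294 reads with mA2 dRNA and 392 with Con dRNA, a ratio of 0.750 (adjusted p 0.333, the authors' deposited table). Symbols and positions also part ways elsewhere: over the 9 genes, 22 peaks inside RefSeq bounds carry another symbol, none of them called, 0 higher and 1 lower at p under 0.05 before adjustment (the authors' deposited table).

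Lamc1, the gamma chain that pairs with Lama5 and Lamb1 in the common epithelial laminin, had 11 peaks and none called. The gene lies at chr1:153218922-153332786 on the minus strand. Of these, 5 had the higher mean with mA2 dRNA and 6 with Con dRNA, and the gene's peaks summed to 1852 and 1971 reads in the same order. The strongest intronic peak, 32.0 kb into intron 1, held 580 reads with mA2 dRNA and 667 with Con dRNA, a ratio of 0.868 with an interval from 0.710 to 1.06. The smallest p was at a weak intron 1 peak at 65.5 kb with 41.3 and 19.6 reads with mA2 dRNA and Con dRNA (adjusted p 0.450, the authors' deposited table).

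Perlecan, encoded by Hspg2 at bases 137468751 to 137570630 of chromosome 4, read on the plus strand (gene ID 15530), had 11 peaks and none called. Of these, 8 (72.7%, against 60.8% of all peaks) had the higher mean with mA2 dRNA, with a median log2 difference of 0.15. In the first intron, a part of the gene not set out beforehand, it was 7 of 8 peaks (87.5%), with a median of 0.35. The lowest p belonged to an intron 1 peak 28.6 kb from the start site, with 162 reads with mA2 dRNA against 83.5 with Con dRNA. Its ratio was 1.94 with an interval from 1.23 to 3.07 (adjusted p 0.110, the authors' deposited table). A second intron 1 peak at 12.01 kb held 193 reads with mA2 dRNA and 117 with Con dRNA, a ratio of 1.64 (adjusted p 0.382, the authors' deposited table). The strongest sites of the gene had ratios near 1. The exon 2 peak at 32.1 kb held 744 reads with mA2 dRNA and 688 with Con dRNA, the intron 1 peak at 1.05 kb held 493 and 459, and the start-site peak 371 and 373. The interval of the exon 2 ratio ran from 0.859 to 1.36. Within the RefSeq bounds of Hspg2 lie 5 more peaks, which carry the symbol Mir7018. Their log2 differences ran from -0.79 to 0.77, and none was called (lowest adjusted p 0.655, the authors' deposited table).

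**Figure D4:**
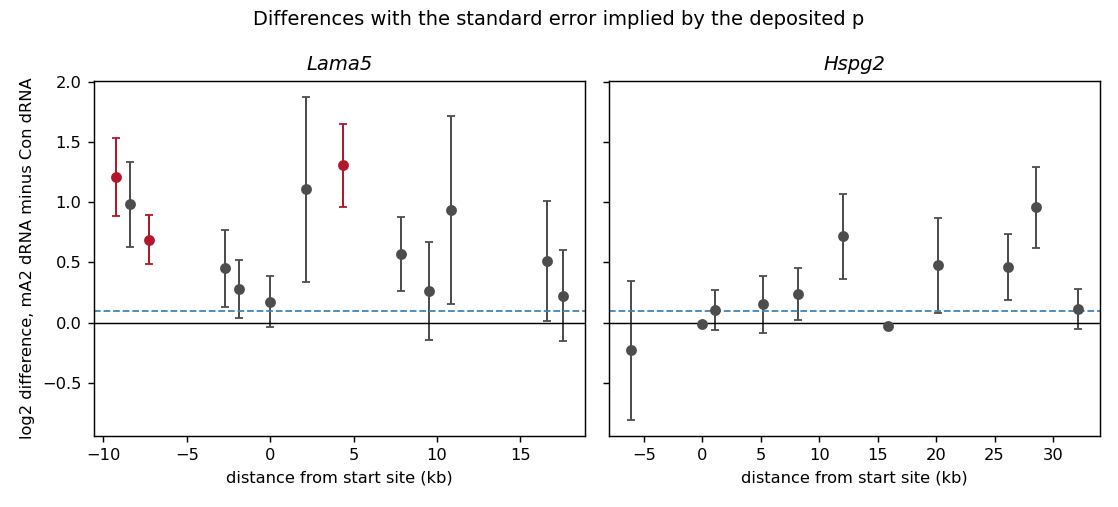
Log2 difference (mA2 dRNA minus Con dRNA) of the Lama5 and Hspg2 peaks against distance from the start site in kb. Bars are 1 standard error as implied by the deposited p, points without bars have differences under 0.1, and red marks called peaks. The bars of the Lama5 peaks at 2.17 and 10.8 kb span more than those of the called peaks, and the Hspg2 start-site peak lies on 0.

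**Figure D5:**
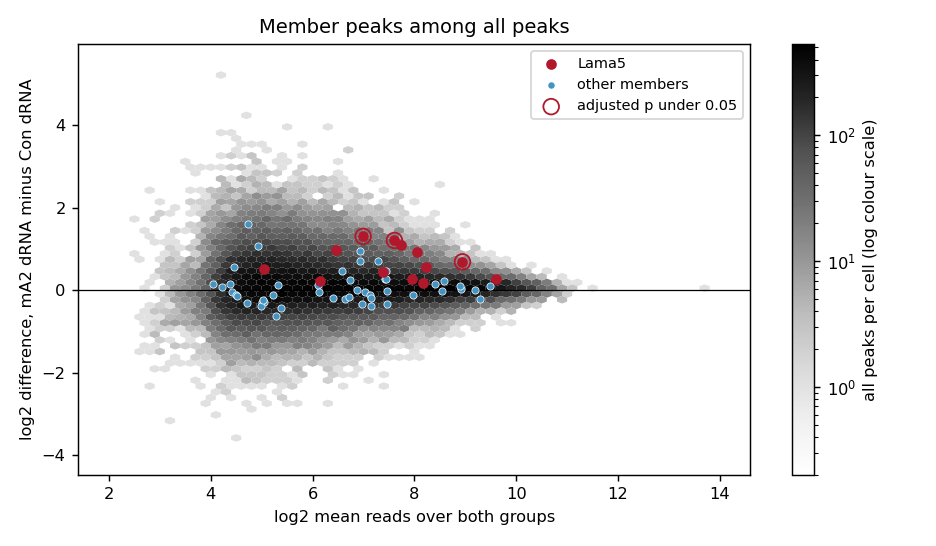
Log2 difference (mA2 dRNA minus Con dRNA) against log2 mean reads over both groups for all 80881 peaks (grey cells, log colour scale), the 13 Lama5 peaks (red) and the 48 other member peaks (blue), with circles round the 3 called peaks. The circled peaks lie at 0.69 to 1.31, and the members as a whole run from -0.62 to 1.61.

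By annotation class, the called peaks were 1 of 4 exonic members and 2 of 16 intergenic ones, with 0 of 32 intronic and 0 of 9 promoter peaks. Among all peaks, 2.07% of exonic, 2.58% of intergenic, 2.47% of intronic and 1.2% of promoter peaks rose in the authors' deposited table, and the shares that fell were 0.512%, 0.612%, 0.561% and 0.22% in the same order. Before adjustment, 2 of the intronic members, both in Hspg2, were higher at p under 0.05 and 0 lower (the authors' deposited table).

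Related genes were called at shares on both sides of the 2.23% of all peaks that rose, and 8.86% of all peaks were higher at p under 0.05 before adjustment (the authors' deposited table). Other laminin family genes, which here include the netrins, had 62 peaks, of which 1 rose (1.61%) and 0 fell, with 9 higher and 1 lower at p under 0.05 before adjustment (the authors' deposited table). The call was an intronic peak of Ntng1, a membrane-bound netrin of axons, with 164 reads with mA2 dRNA against 43.2 with Con dRNA. Its ratio was 3.80 (adjusted p 8.61e-05, the authors' deposited table).

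Other basement membrane genes had 168 peaks, of which 5 rose (2.98%) and 0 fell, with 20 higher and 7 lower at p under 0.05 before adjustment (the authors' deposited table). An exonic peak of Fbln2, a fibulin of elastic and basement membrane matrix, held 308 reads with mA2 dRNA and 151 with Con dRNA (adjusted p 0.00379, the authors' deposited table). Sparc, a collagen-binding matricellular protein, had 2 of the calls, the better of which held 601 reads with mA2 dRNA and 298 with Con dRNA. The other pair of calls, named after their values were seen, were the promoter of Fbln1, another fibulin, and a site 94.9 kb upstream of Egflam, a dystroglycan-binding matrix protein. The Fbln1 peak held 155 reads with mA2 dRNA and 58.2 with Con dRNA, and the Egflam peak 56.5 and 13.7. Laminin receptors had 0 calls among 66 peaks, with 7 higher and 0 lower at p under 0.05 before adjustment (the authors' deposited table). Their lowest p belonged to peaks of Itgb4 and Itga3, integrin subunits that bind laminin, with ratios of 1.56 and 1.59 (the authors' deposited table gave 0.161 and 0.168 as adjusted p).

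Markers give a limited check of the cell label. Malat1 RNA itself was not measured by this assay. Of 8 epithelial and lung markers, 5 had a promoter peak, at 33.5 to 398 reads, led by Krt19 and Krt8, whereas Nkx2-1, Sftpc and Epcam had none in that class. The 51 peaks of these genes summed to 12366 reads with mA2 dRNA and 11680 with Con dRNA, with 1 higher (1.96%) and 0 lower calls. Promoter peaks were found for 2 of 8 leukocyte, 2 of 7 endothelial and 3 of 7 fibroblast markers, the last including Col1a1 at 535 reads. The leukocyte pair were Cd68 at 298 reads, above the 242 of Krt8, and Ly6g at 38.7. The endothelial pair were Kdr at 43.2 and Erg at 42.5 reads. Of all peaks, 2.23% rose and 0.507% fell in the authors' deposited table. Beside the Lama5 rises, endothelial markers had 5 higher and 0 lower calls among 29 peaks (17.2% higher). Their reads summed to 3193 with mA2 dRNA and 2242 with Con dRNA, and Emcn had no peak. Fibroblast markers had 4 higher and 0 lower calls among 47 peaks (8.51% higher), with 6864 and 5758 reads in sum with mA2 dRNA and Con dRNA. Leukocyte markers had 0 calls among 13 peaks, 0 also at p under 0.05 before adjustment (the authors' deposited table), with sums of 1028 and 984 reads in the same order. The part of these marker peaks in the Lama5 differences was not tested.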

How the data were processed

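ATAC-seq was made with a commercial kit, per the labels' protocols, in 2 libraries per guide. The submitters' processing notes list the build mm10, the peak tools MACS2, ChIPseeker and DiffBind, the aligner Bowtie2, and Picard, FastQC and deepTools, with no version. The sources used here do not give how reads were filtered, shifted and normalized, nor whether libraries were pooled to call peaks. For each peak the authors deposited the log2 of the mean normalized reads per group and over both, a log2 fold, a p-value and an adjusted p-value, per the file headers, by a test that is not named.

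The header writes dmA12 and dLuc for mA2 and Con, which were matched because the series holds a single contrast. A further 4 columns hold single libraries under names that match no sample, and they were left out, so depth per library, the planned fits per library and a spread between libraries are not given. Adjusting the deposited p-value over all peaks by Benjamini-Hochberg gave the deposited adjusted values to within 7.40e-06. The deposited log2 fold ran smaller than the group means' own difference on the log2 scale: it came to 0.77 of that difference in the median called peak, and to 0.11 in the median uncalled peak whose means differ by at least 0.1. The ratio of means is printed, so for most peaks it lies much farther from 1 than the authors' own fold. Implied standard errors are the difference divided by the normal score of the deposited p; their median was 0.68 in the weakest and 0.13 in the strongest of 20 abundance bins. For centring, differences under 0.1 took the median error of their bin. Windows of 10 Mb were fixed stretches counted from the start of each chromosome, not centred on a gene. Simulated data were used to try only the centring on the median of all peaks, under a shift common to all peaks. The outcome is not given here. Centring by chromosome, by window or along abundance was not simulated. Python 3.11.15, pandas 2.3.3 and scipy 1.17.1 were used.

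Named peaks are every called member peak, and per gene the one nearest the start site and the one with the smallest p; others complete the account of a gene. Of each other list the 2 genes with the smallest p are named, except 1 that is not reported here. Members and lists were chosen with earlier results of these data known. The motif search, planned for peaks, was run on RefSeq promoters because no genome was used here. Gene, exon and intron assignments are the authors', and gene bounds are from RefSeq (GRCm38.p6).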

Additional observations from a re-analysis of the deposited data

How the results depend on the processing

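The count of 3 higher member peaks became 1 with differences centred by 10 Mb window, 0 at a threshold of 0.01 on the adjusted p and 0 within 3 kb of a start site. It was 2 with each of the other 3 centrings and with a log2 difference of the group means of at least 1. It was 3 within 50 kb, with at least 50 reads, and at a threshold of 0.1. No alternative gave a lower call. Over a set widened to all peaks inside the RefSeq bounds of the genes it was 3 of 83, and without Lama5 it was 0 of 48; both were chosen after seeing the data. The median difference of 0.11 was 0.0209 centred on all peaks, 0.01996 along abundance, 0.0498 by chromosome, 0.0610 by window, 0.16 with at least 50 reads, 0.15 within 50 kb, 0.14 within 3 kb, -0.0010 as the median of the 9 gene medians and -0.0095 without Lama5. The Lamb1 start-site peak turned below 0 centred on all peaks (adjusted p 0.998) or along abundance (0.999), and that of Lamc1 above 0 by chromosome or window (adjusted p 1 for both); neither was called. The list of other laminin family genes held 1 call, but 2 calls by window or with at least 50 reads, 3 at a threshold of 0.1 and 0 within 3 or 50 kb. The basement membrane list held 5 calls, but 3 by chromosome, by window or at 0.01 and 1 within 3 kb. For the changes with centring, the cause was not tested. No paired analysis was possible because the columns used carry no replicate number, and leaving out a library, other library scalings and a fit per library were not run for the same reason. Weak peaks such as those of Lama1 limit what can be seen: the median implied standard error was 0.68 in the weakest bin of abundance.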

Other observations

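Chains of collagen IV and related collagens of the same sheet, named after their values were seen, differed by gene in the side on which their means lay. Col4a1 and Col4a2, the common collagen IV chains, had the higher mean with mA2 dRNA at 9 of 14 and 14 of 18 peaks, with median log2 differences of 0.25 and 0.27. Col18a1, a basement membrane collagen whose end fragment is endostatin, had it at 14 of 14 peaks with a median of 0.42. Col4a5 and Col4a6, neighbouring genes of the X chromosome, had the lower mean with mA2 dRNA at 3 of 3 and 9 of 9 peaks, with medians of -0.31 and -0.43. Of the autosomal chains with 1 peak each, Col4a3 also had the lower mean with mA2 dRNA (log2 difference -0.93, lower at p under 0.05 before adjustment in the authors' deposited table), and Col4a4 the higher (0.31). Col15a1 had the higher mean with mA2 dRNA at 7 of 12 peaks, with a median of 0.10. None of these peaks was called. Before adjustment at p under 0.05 in the authors' deposited table, Col4a2 had 3 higher and 0 lower peaks and Col4a1 1 and 0. In the same order, Col18a1 had 1 and 0, Col15a1 2 and 0, Col4a5 0 and 0, and Col4a6 0 and 3. The 1854 peaks of the X chromosome had a median of -0.12, against 0.09 over all peaks, and 37.0% of them had the higher mean with mA2 dRNA, against 60.8% of all peaks. The part of this chromosome's shift in the Col4a5 and Col4a6 differences was not tested.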
